A study of Mus musculus with 23 samples.

Results

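The libraries compared here came from bone marrow-derived macrophages, which are macrophages grown in culture from mouse bone marrow cells, of the genotype labelled Stk40 KO. The KO T6 group holds 3 libraries from KO cells exposed to lipopolysaccharide (LPS), a component of the outer membrane of Gram-negative bacteria, at the time label T6. The KO T0 group holds 3 libraries from KO cells left untreated. No library of untreated cells is labelled T6, so effects of LPS and of time in culture cannot be told apart here. These 6 libraries are all those with the group labels KO_T6 and KO_T0, out of 23 in the series, and every gene with enough counts was tested. The series also holds KO libraries at T16 and T32 and libraries of wild type (WT) cells at the same labels, of which 3 at T6 and 3 at T0 are used below for the difference in response between genotypes. The labels read here give no unit of time, no allele behind the KO label, no age or strain of the mice and no dose of LPS. They are silent on the origin of the replicates (mice or cultures), so a p-value speaks for the scatter among these libraries alone, part or all of which may be technical.

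LPS is sensed on macrophages by Toll-like receptor 4 with its partners CD14 and MD-2. The adaptor MyD88 leads from the receptor to the NF-kB and AP-1 transcription factors and to inflammatory cytokine genes, and the adaptor TRIF leads to the kinase TBK1, to interferon-beta and, through the interferon receptor, to the interferon-induced genes. Macrophages exposed to LPS are known to make nitric oxide and itaconate, to use more glucose and to slow their division. STK40 is a pseudokinase that binds COP1, the substrate-recognition part of a ubiquitin ligase whose known substrates include C/EBP, ETS and JUN transcription factors.

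Totals were 23470896 to 32480773 counts in the KO T6 libraries and 22138128 to 33744576 in the KO T0 libraries. Levels below are CPM (counts relative to the library total) scaled with the trimmed mean of M values (TMM), with factors of 0.677 to 0.724 at KO T6 and 1.181 to 1.306 at KO T0. KO T6 replicate 2 and KO T0 replicate 1 stood apart from their groups in the share of mitochondrially encoded genes. By mean correlation with its group, KO T0 replicate 2 (0.9715) was as low as KO T0 replicate 1 (0.9721), against 0.9806 for KO T0 replicate 3. Mitochondrially encoded genes took 0.3596%, 0.6812% and 0.3508% of counts in KO T6 replicates 1, 2 and 3, against 0.3547%, 1.822% and 1.423% in KO T0 replicates 1, 2 and 3. Over 9230 genes, the deviation of KO T6 replicate 2 from its group ran against gene size (Spearman's rho -0.49, against 0.40 and 0.48 for its partners), and at KO T0 rho was 0.31, -0.30 and -0.08. The fold change itself had a rho with gene size of 0.07. The 8 macrophage markers (Csf1r, Adgre1, Cd68, Itgam, Lyz2, Mertk, Fcgr1 and Spi1) summed to 17700 to 26600 CPM at KO T6 and 17300 to 25100 CPM at KO T0, and each was detected in all 6 libraries. In bulk libraries such as these, fewer cells of a type and less RNA per cell cannot be told apart. Marker lists of other cells were low: erythroid genes summed to 0.178 to 0.235 CPM at KO T6 and 0.351 to 39.4 CPM at KO T0. Those of T, B and NK cells summed to 11.4 to 22.2 CPM at KO T6 and 24.5 to 35.4 CPM at KO T0, those of dendritic cells to 5.83 to 10.5 and 3.75 to 6.3 CPM, and those of mast cells and basophils to 0.682 to 3.82 and 0.723 to 2.59 CPM, in that order of groups. Neutrophil and precursor genes summed to 581 to 704 CPM at KO T6 and 611 to 704 CPM at KO T0, megakaryocyte genes (mainly Pf4, which macrophages also express) to 384 to 706 and 336 to 438 CPM, and stromal and endothelial genes to 135 to 319 and 74.5 to 88.5 CPM, their rise lying mainly in Kdr (120 against 16.9 CPM). The part of these differences in the results was not tested.

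Stk40 itself, the gene named in the KO label (ENSMUSG00000042608, chr4:126103957-126141029 on GRCm38), was not low in the KO libraries and was higher at KO T6. It had 388, 354 and 385 CPM in KO T6, against 51.7, 61.3 and 56.5 CPM in KO T0, a log2 fold change of 2.73 ± 0.16 (SE; adjusted p = 1.9e-11). All KO T6 libraries were above all KO T0 libraries. In WT cells the log2 fold change of Stk40 was 2.70. Counts summed over the whole gene do not show whether part of the transcript is deleted, so they neither check nor contradict the label.

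The response covered most of the expressed genome. Of 15782 genes tested, 9253 changed between KO T6 and KO T0 at an adjusted p under 0.05 (58.6%), 4142 of them higher at KO T6 (26.2%) and 5111 lower (32.4%). A change of more than 2-fold passed its own test for 4003 genes (25.4%), 1944 higher (12.3%) and 2059 lower (13%). The CPM of KO T6 and KO T0 did not overlap for 8980 genes (56.9%). Counts of list members below are to be read beside the 26.2% of all genes that rose and the 32.4% that fell. The genes that rose took 70.1%, 68.2% and 71.5% of all counts in the KO T6 libraries, against 36.6%, 33.6% and 35.4% in the KO T0 libraries, and those that fell took 6.02% to 7.19% at KO T6 and 22.9% to 26.4% at KO T0.

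The balance of rises and falls depends on the scaling. The median log2 fold change over all genes was -0.17 with TMM and -1.0 with library totals, a shift of -0.832, and with library totals 2007 genes rose and 9492 fell. With library totals, 288 genes that rose under TMM fell. Rises of less than about this shift are therefore to be read as relative to the bulk of genes. The gene groups whose direction turns with library totals are named as such. Without the libraries that stood apart, KO T6 replicate 2 and KO T0 replicate 1, 4485 genes rose and 5458 fell.

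The 12 largest rises were those of Nos2, Shisa3, Ptgs2, Il6, Csf3, Itgb8, Mir155hg, Il1a, Tarm1, Edn1, Steap4 and Il19, with log2 fold changes of 8.36 to 11.79. Nos2, the inducible nitric oxide synthase (chr11:78920787-78960254), had 5888, 3762 and 5388 CPM in KO T6, against 1.46, 1.7 and 1.07 CPM in KO T0 (log2 fold change 11.79 ± 1.11, adjusted p = 1.5e-08). Ptgs2, which encodes the inducible cyclooxygenase COX-2 (chr1:150100031-150108227), had 1078, 564 and 1546 CPM in KO T6, against 0.853, 0.9 and 1.03 CPM in KO T0 (10.16 ± 0.57, adjusted p = 1.1e-11). Both were scarce in each untreated library and abundant in each treated one.

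Il6, the gene of interleukin 6 (chr5:30013114-30019981), had 76.1, 110 and 105 CPM in KO T6, against 0.0753, 0.139 and 0.0344 CPM in KO T0 (10.14 ± 0.53). Edn1, which encodes the vasoconstrictor peptide endothelin 1, had 241, 154 and 305 CPM in KO T6, against 0.502, 0.9 and 0.516 CPM in KO T0 (8.52 ± 0.53). Il1a, for interleukin 1 alpha, had 488, 496 and 815 CPM in KO T6, against 2.76, 0.727 and 0.895 CPM in KO T0 (8.63 ± 0.53). For these genes every treated library lay above every untreated one, which the rule for choosing them required.

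Tarm1, a receptor of the leukocyte immunoglobulin-like family, had 438, 415 and 458 CPM in KO T6, against 0.929, 1.35 and 1.07 CPM in KO T0 (8.62 ± 0.37). Mir155hg, the host transcript of the inflammatory microRNA miR-155, had 50.7, 30.3 and 61.5 CPM in KO T6, against 0.0251, 0.173 and 0.0344 CPM in KO T0 (9.28 ± 0.56). Itgb8, an integrin subunit that activates latent TGF-beta, had 49.8, 10.7 and 56.5 CPM in KO T6, against 0.0753, 0.0346 and 0 CPM in KO T0 (9.77 ± 0.89), with KO T6 replicate 2 the low one. Il19, of the interleukin 10 family, and Steap4, a metalloreductase, rose by log2 fold changes of 8.36 ± 0.70 and 8.44 ± 0.56.

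For a pair of these genes the untreated group held 3 counts or fewer in all, and only a ratio with its counting interval is given. Shisa3, which encodes a membrane adaptor protein, had 47, 27.8 and 41.4 CPM in KO T6, against 0, 0.0346 and 0 CPM in KO T0: 2443 counts against 1, a ratio of 3883 (95% interval 696 to 153440, counting error only). Csf3, for granulocyte colony-stimulating factor, had 17.6, 27.3 and 21.3 CPM in KO T6, against 0.0251, 0 and 0.0344 CPM in KO T0: 1328 counts against 2, a ratio of 1055 (292 to 8724). The counts put both far above the untreated cells without fixing the size of the fold.

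**Figure D1:**
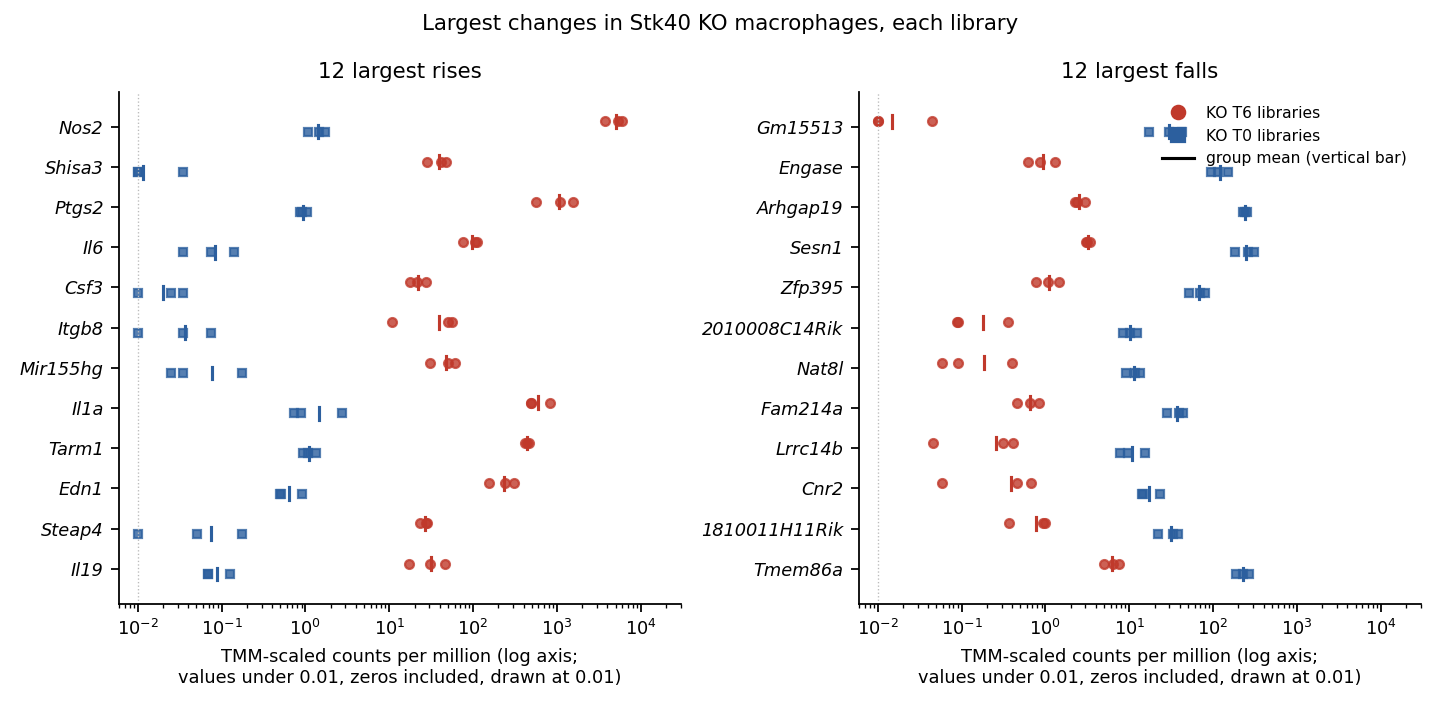
TMM-scaled CPM (log axis) of the 12 genes with the largest log2 fold change in each direction; points are libraries, circles for KO T6 and squares for KO T0, and vertical bars are group means. The KO T6 points lie on one side of the KO T0 points in all 24 genes because genes with overlapping groups were not chosen. Nos2 lies between 3762 and 5888 CPM at KO T6 and under 2 CPM at KO T0.

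The largest falls, ranked by the same rule, took transcripts of about 10 to 250 CPM to a few CPM or less. Arhgap19, a GTPase-activating protein (chr19:41766588-41802047), had 2.93, 2.41 and 2.23 CPM in KO T6, against 257, 226 and 241 CPM in KO T0 (log2 fold change -6.57 ± 0.19, adjusted p = 8e-15). Sesn1, for sestrin 1, which restrains the growth kinase mTORC1 (chr10:41809935-41908424), had 3.06, 3.36 and 3.14 CPM in KO T6, against 180, 307 and 262 CPM in KO T0 (-6.29 ± 0.31). Engase, a cytosolic enzyme that trims N-glycans, had 0.621, 1.3 and 0.864 CPM in KO T6, against 95, 152 and 115 CPM in KO T0 (-7.05 ± 0.32). The replicates of each group were close beside these gaps.

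Tmem86a, a lysoplasmalogenase, had 6.35, 7.48 and 5 CPM in KO T6, against 268, 186 and 226 CPM in KO T0 (-5.18 ± 0.21). Cnr2, the cannabinoid receptor of immune cells, had 0.666, 0.0589 and 0.455 CPM in KO T6, against 23.1, 14.3 and 14.4 CPM in KO T0 (-5.37 ± 0.37). Nat8l, which makes N-acetylaspartate, had 0.399, 0.0589 and 0.091 CPM in KO T6, against 9.21, 13.4 and 11.7 CPM in KO T0 (-5.86 ± 0.48). Zfp395, Fam214a, Lrrc14b, 2010008C14Rik and 1810011H11Rik fell by 5.92, 5.82, 5.43, 5.92 and 5.36 on the log2 scale. Gm15513, a sense-intronic transcript, had 1 count over the KO T6 libraries and 2770 over the KO T0 libraries, a ratio of KO T0 over KO T6 of 1743 (95% interval 313 to 68856, counting error only). Its annotated type places it in an intron of another gene on the same strand, with which it may share reads.

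The 8 largest gains in CPM were those of Rsad2 (viperin, an antiviral enzyme), Saa3 (an acute-phase protein), Cxcl10, Acod1 (which makes itaconate), Cmpk2 (a mitochondrial nucleotide kinase), Ifit2, Fth1 (ferritin heavy chain) and Il1rn (the interleukin 1 receptor antagonist). Together they took 6.92%, 7.07% and 6.89% of counts in KO T6, against 1.36%, 0.916% and 0.902% in KO T0. Rsad2 had 19058, 16830 and 19914 CPM in KO T6, against 1028, 742 and 895 CPM in KO T0 (4.39 ± 0.38). Saa3 had 10138, 24058 and 9531 CPM in KO T6, against 48, 81.8 and 72.3 CPM in KO T0 (7.76 ± 0.57). KO T6 replicate 2 was the highest of its group in Saa3 and the lowest in Ifit2 (12268, 4749 and 13348 CPM in KO T6, against 1639, 419 and 671 CPM in KO T0, 3.48 ± 0.51).

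Acod1 had 10913, 8941 and 10963 CPM in KO T6, against 49.5, 43.3 and 50.9 CPM in KO T0 (7.74 ± 0.36). Il1rn had 7996, 8552 and 9223 CPM in KO T6, against 111, 44.5 and 76.4 CPM in KO T0 (6.79 ± 0.35). Fth1 had 17277, 11586 and 16094 CPM in KO T6, against 7761, 5173 and 4561 CPM in KO T0 (1.36 ± 0.25). The authors' nRPKM scale divides by gene length and so allows genes to be ranked, here the protein-coding ones. Fth1 (mean 16301), Ccl5 (12977), Lyz2 (9950), B2m (8715) and Cxcl10 (7356) led at KO T6, against Lyz2 (9128), Fth1 (5875), Psap (4281), Ctsd (4067) and B2m (3516) at KO T0. The 5 most abundant protein-coding transcripts included a pair of chemokines at KO T6 and a pair of lysosomal genes, Psap and Ctsd, at KO T0.

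The largest losses in CPM were in the lysosomal protease Ctsd, the nuclear RNA Neat1, Txnip (an inhibitor of glucose uptake), the growth factor receptor Csf1r, the scavenger receptor Stab1, Laptm5, the amino acid transporter Slc43a2 and the peroxidase Gpx1. Txnip had 254, 217 and 261 CPM in KO T6, against 1748, 1357 and 1418 CPM in KO T0 (-2.63 ± 0.14). Slc43a2 had 61.6, 54.7 and 39.8 CPM in KO T6, against 675, 641 and 602 CPM in KO T0 (-3.62 ± 0.17). Stab1 had 379, 245 and 296 CPM in KO T6, against 986, 1650 and 1049 CPM in KO T0 (-2.0 ± 0.21), and Neat1 fell by 1.37 on the log2 scale (SE 0.24). The falls of Ctsd (-0.44 ± 0.17, adjusted p = 0.034) and Laptm5 (-0.43 ± 0.18, adjusted p = 0.044) were small: that of Ctsd did not pass without any 1 of KO T6 replicates 1 and 3 and KO T0 replicate 1 (-0.48 to -0.26), nor that of Laptm5 without any 1 of KO T6 replicates 1 and 3 and KO T0 replicates 2 and 3 (-0.48 to -0.31).

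Of 28 genes that receive or relay the LPS signal, 16 rose and 4 fell (median log2 fold change 0.91, against -0.17 over all genes tested), and 11 rose and 10 fell with library totals. The receptor gene Tlr4 had 75.1, 43.9 and 79.3 CPM in KO T6, against 95.8, 52.3 and 69.4 CPM in KO T0 (-0.13 ± 0.24, adjusted p = 0.65), with overlapping groups. Its partner Cd14 had 3444, 2979 and 3354 CPM in KO T6, against 235, 327 and 316 CPM in KO T0 (3.48 ± 0.17). The adaptor Myd88 had 854, 1050 and 887 CPM in KO T6, against 165, 170 and 159 CPM in KO T0 (2.50 ± 0.16). Among the kinases, the activating Irak2 and the inhibitory Irak3 rose by 2.46 ± 0.19 and 2.61 ± 0.17, while Irak1 and Irak4 fell (-0.70 and -0.82). Log2 fold changes went down to -3.71 among the adaptors and -1.49 among the kinases and ligases, with 1 fall over 2-fold in each. Without KO T0 replicate 1 and KO T6 replicate 2, 0 adaptors fell. Traf1 rose by 5.50 and Ikbke by 1.74.

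NF-kB subunits and their inhibitors rose together. All 5 subunit genes and 10 of 12 inhibitors and ubiquitin editors rose, with a median log2 fold change of 2.82 over the 17 genes, and 13 of the 17 also rose with library totals. The subunit gene Nfkb2 had 1137, 1369 and 1253 CPM in KO T6, against 119, 138 and 109 CPM in KO T0 (3.36 ± 0.17). Nfkbia, which encodes the inhibitor IkB-alpha, had 1530, 2699 and 1714 CPM in KO T6, against 135, 214 and 199 CPM in KO T0 (3.44 ± 0.26), and Tnfaip3, the ubiquitin editor A20, had 2134, 2395 and 2519 CPM in KO T6, against 90.7, 60.9 and 92.6 CPM in KO T0 (4.85 ± 0.22). Otulin, a deubiquitinase, was the member that fell (-0.71), and no member fell without KO T6 replicate 1, KO T6 replicate 3 or KO T0 replicate 2. Nfkbid did not pass (0.27).

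The promoters of genes in this group often held a kB motif. RefSeq windows on GRCm38.p6, 250 bases before to 50 after each start, were searched on both strands for GGGA, any base, TT, any base and CC (kB), GAAA, any 2 bases and GAAA (ISRE, the interferon-stimulated response element), TGANTCA (AP-1), TTTCCCGC (E2F) and TCACGTGA (CLEAR, the lysosomal gene element). The kB motif lay in 52.6% of 19 windows of the 14 matched NF-kB genes and in 36.4% of 11 windows of 11 matched chemokines, against 1.38% of 13442 windows of the genes tested and 1.2% of all 32851 windows. Windows of genes that rose over 2-fold held it in 2.99% and those of genes that fell over 2-fold in 1.07%. Windows of the same gene can overlap and share a match, as for Nfkb2, so these are shares of windows and not of genes. The 250 bases before the start are printed for genes whose rise is described here, 5′ to 3′ on the gene's strand, with every match to these 5 motifs in capitals: Nfkbia (chr12:55492648-55492897, minus strand), Il6 (chr5:30012864-30013113, plus strand) and Cxcl2 (chr5:90903649-90903898, plus strand).
Nfkbia: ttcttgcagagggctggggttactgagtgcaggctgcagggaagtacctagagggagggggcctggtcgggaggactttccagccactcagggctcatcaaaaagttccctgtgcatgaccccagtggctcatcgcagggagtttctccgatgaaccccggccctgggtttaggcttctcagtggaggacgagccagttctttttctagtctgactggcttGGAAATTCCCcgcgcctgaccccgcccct
Il6: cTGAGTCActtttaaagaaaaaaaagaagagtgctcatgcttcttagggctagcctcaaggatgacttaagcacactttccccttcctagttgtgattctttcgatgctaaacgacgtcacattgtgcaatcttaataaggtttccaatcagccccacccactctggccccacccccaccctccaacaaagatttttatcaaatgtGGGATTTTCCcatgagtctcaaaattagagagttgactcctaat
Cxcl2: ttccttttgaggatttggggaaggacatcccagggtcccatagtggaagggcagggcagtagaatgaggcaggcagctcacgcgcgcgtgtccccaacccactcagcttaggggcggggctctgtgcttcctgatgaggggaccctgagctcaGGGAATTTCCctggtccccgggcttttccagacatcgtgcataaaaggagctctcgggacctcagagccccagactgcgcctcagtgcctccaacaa
Nfkbia holds a kB match near its start, Il6 a kB match and, at the far end, an AP-1 match, and Cxcl2 a kB match. A match is a description of the letters in the window and does not show that a factor bound there.

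Of 26 inflammatory cytokine genes, 23 rose and 2 fell, with a median log2 fold change of 5.0, and 21 rose with library totals. Tnf had 1205, 1872 and 1565 CPM in KO T6, against 31.7, 39.7 and 41.5 CPM in KO T0 (5.36 ± 0.28). Il1b had 1249, 1046 and 1456 CPM in KO T6, against 3.71, 6.34 and 3.58 CPM in KO T0 (8.11 ± 0.41), and Il12b, the shared subunit of interleukins 12 and 23, had 28.7, 16.1 and 48.6 CPM in KO T6, against 0.452, 0.0693 and 0.275 CPM in KO T0 (6.78 ± 0.68). The anti-inflammatory cytokine Il10 had 309, 606 and 434 CPM in KO T6, against 23.3, 27.7 and 27.1 CPM in KO T0 (4.11 ± 0.46). Il16 and Osm were the members that fell (-1.78 and -0.51), and 1 member fell without KO T6 replicate 1 or 3 or KO T0 replicate 2 or 3. Ifnb1, the gene of interferon-beta, was low in every library: 2.8, 5.65 and 2.27 CPM in KO T6, against 1.31, 1.14 and 1.34 CPM in KO T0 (1.48 ± 0.41, adjusted p = 0.004). Its rise did not pass without KO T0 replicate 1 and KO T6 replicate 2 (1.03), nor with library totals (0.66).

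Chemokines rose as a group: 16 of 18 genes passed upward, none downward, with a median of 5.14, and 16 rose with library totals, where 1 fell. Ccl5, which draws T cells and monocytes, had 7800, 6899 and 7289 CPM in KO T6, against 77.7, 44.5 and 49.4 CPM in KO T0 (7.0 ± 0.42). Cxcl10, a ligand of CXCR3, had 10452, 13550 and 11616 CPM in KO T6, against 343, 240 and 278 CPM in KO T0 (5.37 ± 0.53). The neutrophil attractant Cxcl2 had 272, 587 and 384 CPM in KO T6, against 12.7, 36.8 and 28.2 CPM in KO T0 (4.0 ± 0.42). Ccl3 and the monocyte attractant Ccl2 each rose by 5.14, and Ccl6 (-0.34) and Cx3cl1 (1.12) did not pass.

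All 46 interferon-induced genes rose, 42 of them by more than 2-fold, with a median log2 fold change of 2.35, and 42 rose with library totals. Without the 2 libraries that stood apart, 45 rose. Isg15, a ubiquitin-like protein, had 3511, 6499 and 3716 CPM in KO T6, against 365, 301 and 385 CPM in KO T0 (3.71 ± 0.35). Ifit1, which binds foreign RNA, had 4931, 3966 and 5862 CPM in KO T6, against 440, 259 and 364 CPM in KO T0 (3.80 ± 0.26). Gbp2, a guanylate-binding protein that attacks vacuoles of microbes, had 5453, 3483 and 5685 CPM in KO T6, against 338, 139 and 196 CPM in KO T0 (4.44 ± 0.36), and Mx1, a GTPase that blocks influenza virus, had 4071, 3003 and 4129 CPM in KO T6, against 470, 497 and 419 CPM in KO T0 (3.01 ± 0.29). The 9 guanylate-binding and immunity-related GTPases had the higher median (3.49), against 2.41 for 27 antiviral effectors and 2.02 for 10 sensors; those 3 groups were not tested against each other.

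Of 15 interferon transcription factors, 12 rose and 2 fell (median 1.25), against 8 and 3 with library totals. Irf1 had 935, 1649 and 1118 CPM in KO T6, against 247, 282 and 256 CPM in KO T0 (2.24 ± 0.21), and Irf7, which amplifies interferon genes, had 5036, 4835 and 5079 CPM in KO T6, against 2073, 1360 and 1321 CPM in KO T0 (1.65 ± 0.24). Log2 fold changes were 3.33 for Stat3 and 3.55 for Stat5a, which serve cytokine receptors, and 1.54 ± 0.17 for Stat2, which serves the interferon receptor. Irf3 and Stat6 fell (-0.65 and -0.70).

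The ISRE motif lay in 55.3% of 38 windows of the 33 matched interferon-induced genes, against 3.4% of the windows of genes tested and 3.44% of all windows. Among genes that rose over 2-fold it lay in 7.38% of windows, and among those that fell over 2-fold in 2.28%. Windows are printed for the chemokine Cxcl10 (chr5:92348890-92349139, minus strand) and for Isg15 (chr4:156200819-156201068, minus strand), Ifit1 (chr19:34640639-34640888, plus strand) and Rsad2 (chr12:26456453-26456702, minus strand), with the same marking.
Cxcl10: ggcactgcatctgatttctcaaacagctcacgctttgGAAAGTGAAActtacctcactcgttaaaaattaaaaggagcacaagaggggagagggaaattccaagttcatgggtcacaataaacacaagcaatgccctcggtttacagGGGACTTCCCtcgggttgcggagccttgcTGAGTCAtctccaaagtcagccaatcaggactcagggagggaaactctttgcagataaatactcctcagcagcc
Isg15: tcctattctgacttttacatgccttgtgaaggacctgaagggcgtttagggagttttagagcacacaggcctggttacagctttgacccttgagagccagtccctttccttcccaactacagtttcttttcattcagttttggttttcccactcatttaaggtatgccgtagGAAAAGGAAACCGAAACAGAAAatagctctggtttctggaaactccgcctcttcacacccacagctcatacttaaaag
Ifit1: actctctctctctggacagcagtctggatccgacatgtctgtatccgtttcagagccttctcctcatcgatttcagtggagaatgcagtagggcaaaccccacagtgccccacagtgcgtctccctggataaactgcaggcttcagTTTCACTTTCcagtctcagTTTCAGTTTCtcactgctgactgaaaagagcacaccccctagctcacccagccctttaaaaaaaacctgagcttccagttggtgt
Rsad2: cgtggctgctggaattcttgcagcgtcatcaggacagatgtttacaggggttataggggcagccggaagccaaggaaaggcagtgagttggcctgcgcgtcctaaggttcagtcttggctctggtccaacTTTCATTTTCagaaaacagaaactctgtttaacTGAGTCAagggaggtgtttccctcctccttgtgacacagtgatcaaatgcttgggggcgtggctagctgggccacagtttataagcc
Cxcl10 holds an ISRE, a kB and an AP-1 match. In Isg15 a single run of capitals joins 3 overlapping ISRE matches, Ifit1 holds a pair of them on the other strand, and Rsad2 has an ISRE match on the other strand and an AP-1 match.

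Most genes known to restrain cytokine signalling were higher at KO T6. Of 23, 16 rose and 5 fell (median 1.14), against 11 and 7 with library totals. Socs3, which blocks signalling by the interleukin 6 receptor, had 2558, 2172 and 2640 CPM in KO T6, against 9.09, 12.7 and 8.05 CPM in KO T0 (7.95 ± 0.29). Socs1, which blocks interferon receptors, had 131, 330 and 128 CPM in KO T6, against 6.95, 11.4 and 9.5 CPM in KO T0 (4.4 ± 0.47). Of the proteins that destroy cytokine mRNA, Zfp36 (tristetraprolin) and Zc3h12a (regnase-1) rose by 2.21 ± 0.18 and 3.05 ± 0.40. The relatives of Zfp36 moved the other way: Zfp36l1 fell by 2.61, and Zfp36l2 had 32, 22.7 and 34.2 CPM in KO T6, against 270, 169 and 184 CPM in KO T0 (-2.81 ± 0.32). The MAPK phosphatase Dusp2 rose by 6.10 and Dusp1 by 1.71 ± 0.20, while Dusp3 fell by 2.06.

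Among 21 immediate early transcription factors, 11 rose and 5 fell (median 0.86), against 8 and 8 with library totals. Falls numbered 2 without KO T6 replicate 3 or KO T0 replicate 3, 3 without KO T6 replicate 1 or KO T0 replicate 2, and 2 with DESeq2's size factors. Junb had 752, 1227 and 856 CPM in KO T6, against 219, 299 and 228 CPM in KO T0 (1.93 ± 0.22), and Batf, another AP-1 protein, rose by 4.85. Fos, Fosb and Jund fell (-1.78, -2.17 and -0.85). Jun fell by 0.36 (SE 0.13, adjusted p = 0.022), a call lost without any 1 of KO T6 replicates 1 and 3 and KO T0 replicate 3 (-0.33 to -0.27). Myc had 11.1, 13.5 and 13.2 CPM in KO T6, against 7.6, 8.55 and 9.19 CPM in KO T0 (0.58 ± 0.25, adjusted p = 0.055). It passed with DESeq2 (0.69) and in a fit to the compared groups alone (0.62). The value of Egr1 (0.86 ± 0.36, adjusted p = 0.044) lost its call without KO T6 replicate 2 or 3, or without any 1 of the KO T0 libraries (0.70 to 0.96). With library totals Egr1 was at 0.01 and did not pass.

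For the COP1 ligase and its substrates, in which STK40 takes part, 9 of 20 genes rose (45%, against 26.2% of all genes tested) and 4 fell (20%, against 32.4%). The median log2 fold change was 0.12 and turned to -0.72 with library totals, where 5 rose and 9 fell. The substrate gene Cebpa had 3.28, 3.59 and 4.87 CPM in KO T6, against 168, 112 and 120 CPM in KO T0 (-5.08 ± 0.19). The related Cebpb and Cebpd rose: Cebpb had 226, 547 and 247 CPM in KO T6, against 43.7, 80.7 and 66.2 CPM in KO T0 (2.42 ± 0.34), and Cebpd had 108, 225 and 113 CPM in KO T6, against 13.4, 34.2 and 26.3 CPM in KO T0 (2.59 ± 0.39). In both, KO T6 replicate 2 was the highest library. Ets2 rose by 3.23 ± 0.18 (203, 182 and 227 CPM in KO T6, against 20, 21.3 and 24 CPM in KO T0). The gene of COP1 itself, listed as Rfwd2, had 12.8, 17 and 13.2 CPM in KO T6, against 8.28, 10.1 and 9.77 CPM in KO T0 (0.61 ± 0.16, adjusted p = 0.0033), and turned to -0.23 with library totals. Its rise did not pass without KO T0 replicate 1 and KO T6 replicate 2 (0.39, adjusted p = 0.076). Of the Tribbles pseudokinases, which also bind COP1, Trib1 did not pass (-0.11 ± 0.22) and Trib3 fell by 1.88.

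Enzymes of arginine, nitric oxide and itaconate metabolism rose in 10 of 17 cases and fell in 3 (median 1.63); with library totals 8 rose and 8 fell. Besides Nos2 and Acod1, the arginine transporter Slc7a2 had 592, 525 and 700 CPM in KO T6, against 2.81, 1.21 and 2.31 CPM in KO T0 (8.15 ± 0.33). Gch1, which starts synthesis of the cofactor of nitric oxide synthase, had 241, 434 and 296 CPM in KO T6, against 43.4, 33.7 and 41.3 CPM in KO T0 (3.03 ± 0.21), but the later enzymes of that path, Pts and Spr, fell (-0.99 and -1.70). Ass1, which regenerates arginine from citrulline, rose by 2.97 ± 0.30, and its partner Asl fell (-0.96).

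In the prostaglandin and lipid mediator list, 5 of 16 genes rose (31.2%, against 26.2% of all genes tested) and 8 fell (50%, against 32.4%). The median was -0.65. Those that rose include 3 steps to prostaglandin E2: the phospholipase Pla2g4a (5.69), Ptgs2, and the synthase Ptges, with 882, 799 and 770 CPM in KO T6, against 4.39, 7.65 and 6.13 CPM in KO T0 (7.08 ± 0.24). Those that fell include the constitutive cyclooxygenase Ptgs1, with 13.1, 12.6 and 10.8 CPM in KO T6, against 36.9, 49.7 and 35.2 CPM in KO T0 (-1.74 ± 0.24), and enzymes of other products, Hpgds for prostaglandin D2 (-1.73 ± 0.14), Tbxas1 for thromboxane (-0.95) and Lta4h for leukotriene B4 (-1.49). Hpgd, which breaks prostaglandins down, fell by 2.31.

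**Figure D2:**
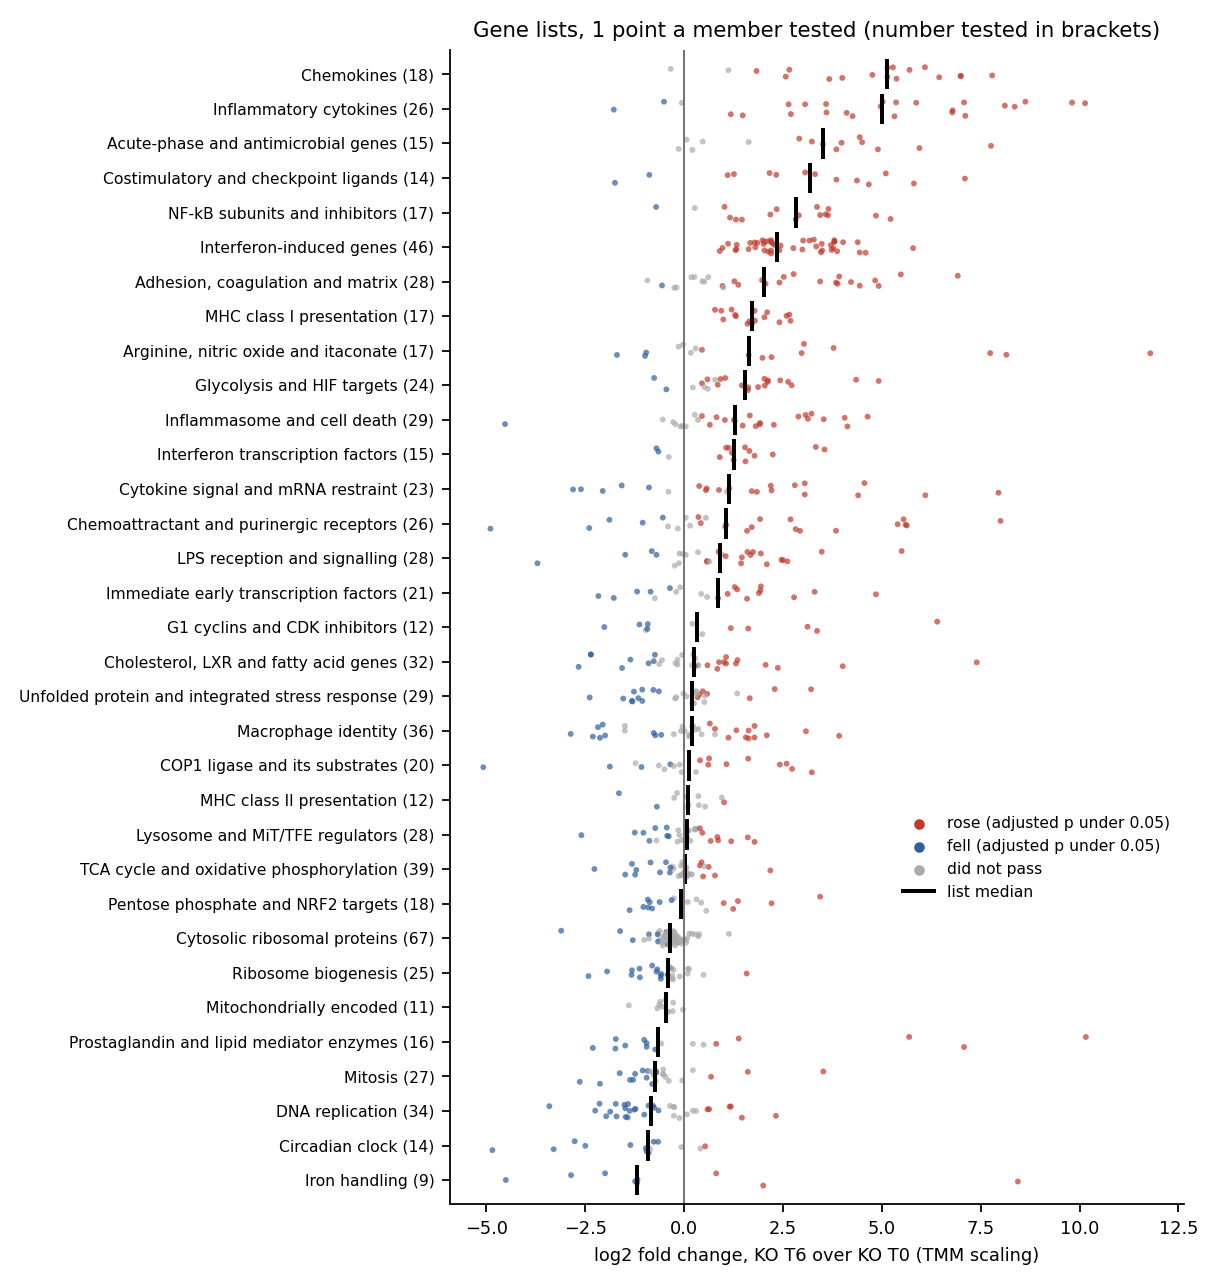
Log2 fold change of KO T6 over KO T0 (horizontal axis, TMM scaling) for the tested members of the gene lists other than cell type markers and symbol families, 1 point a gene, red where the gene rose, blue where it fell and grey where it did not pass; black bars are list medians. Among the lists drawn, chemokines and inflammatory cytokines have the highest medians (5.14 and 5.0), and iron handling and the circadian clock the lowest (-1.19 and -0.92).

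Acute-phase and antimicrobial genes rose in 10 of 15 cases and fell in none (median 3.51). Lcn2, which binds bacterial iron carriers, had 680, 532 and 736 CPM in KO T6, against 57.8, 42.1 and 35 CPM in KO T0 (3.85 ± 0.36). Complement C3 had 2716, 1294 and 2420 CPM in KO T6, against 321, 190 and 174 CPM in KO T0 (3.23 ± 0.40), and complement factor B (Cfb) rose by 4.50 ± 0.39. Mt2, a metallothionein, had 505, 1499 and 576 CPM in KO T6, against 7.98, 18.9 and 15 CPM in KO T0 (5.95 ± 0.47), again with KO T6 replicate 2 the highest.

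Of 9 iron-handling genes 3 rose and 6 fell. Slc40a1, the iron exporter ferroportin, had 11.5, 9.54 and 11.5 CPM in KO T6, against 292, 191 and 259 CPM in KO T0 (-4.51 ± 0.22). The transferrin receptor Tfrc had 85.8, 86.1 and 91.4 CPM in KO T6, against 415, 294 and 342 CPM in KO T0 (-2.0 ± 0.29), and the importer Slc11a2 (DMT1) rose by 2.0.

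Among 29 inflammasome and cell death genes, 20 rose and 1 fell (median 1.28), against 15 and 8 with library totals. Nlrp3 had 736, 640 and 822 CPM in KO T6, against 27.5, 31.5 and 29 CPM in KO T0 (4.64 ± 0.23). Casp4, which encodes caspase-11, the intracellular LPS sensor, had 505, 441 and 576 CPM in KO T6, against 60.6, 57.6 and 55.8 CPM in KO T0 (3.13 ± 0.17). Mlkl, the executor of necroptosis, had 344, 352 and 372 CPM in KO T6, against 50.6, 30.9 and 45.6 CPM in KO T0 (3.07 ± 0.18). Cflar, which blocks caspase-8, rose by 4.06 and the survival gene Birc3 by 1.91 ± 0.13. Nlrp1b was the member that fell (-4.53); 4 members fell without KO T6 replicate 2, and 2 without KO T0 replicate 1.

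All 17 genes of MHC class I presentation rose (median 1.72), 13 of them also with library totals, while most class II genes did not pass. B2m had 8992, 5082 and 9791 CPM in KO T6, against 4913, 2534 and 2957 CPM in KO T0 (1.2 ± 0.27), a rise that did not pass with library totals (0.37, adjusted p = 0.17). The peptide transporter gene Tap1 rose by 2.41 ± 0.19. Of 12 class II genes, 1 rose (8.33%, against 26.2% of all genes tested) and 2 fell (16.7%, against 32.4%), with a median of 0.10. With library totals 0 rose and 8 fell. Rises numbered 3 without KO T0 replicate 1 and 0 without KO T6 replicate 1 or KO T0 replicate 3. Their master regulator Ciita had 6.35, 2.06 and 5.37 CPM in KO T6, against 3.69, 2.35 and 1.07 CPM in KO T0 (0.95 ± 0.42, adjusted p = 0.06) and passed without KO T6 replicate 2 (1.29) or KO T0 replicate 1 (1.43). Cd74 (0.53 ± 0.29) and H2-Aa (0.04 ± 0.27) did not pass, but Cd74 did without KO T0 replicate 1 (0.77, adjusted p = 0.048).

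Costimulatory and checkpoint ligands rose in 12 of 14 cases and fell in 2 (median 3.18), or in 1 without KO T0 replicate 3. Cd40, the receptor through which T cells activate macrophages, had 2401, 3329 and 2794 CPM in KO T6, against 20.9, 20.1 and 21.1 CPM in KO T0 (7.10 ± 0.35). Cd274, the inhibitory ligand PD-L1, had 3486, 3427 and 4114 CPM in KO T6, against 351, 173 and 243 CPM in KO T0 (3.85 ± 0.24), and Cd86 had 238, 163 and 247 CPM in KO T6, against 22.9, 29.5 and 25.6 CPM in KO T0 (3.06 ± 0.33). Vsir and Havcr2, which encode the inhibitory molecules VISTA and TIM-3, fell (-1.75 and -0.88).

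Of 36 macrophage identity genes 12 rose (33.3%, against 26.2% of all genes tested) and 9 fell (25%, against 32.4%), shares near the background (median 0.19, turning to -0.65 with library totals, where 8 rose and 20 fell). Csf1r, the receptor for the macrophage growth factor, had 1961, 1073 and 1621 CPM in KO T6, against 3007, 2548 and 2173 CPM in KO T0 (-0.73 ± 0.20, adjusted p = 0.0036), and its fall did not pass without the 2 libraries that stood apart (-0.40). The chemokine receptors Ccr2 and Cx3cr1 fell by 2.31 and 2.18. The scavenger receptor Msr1 (3.92) and the Fc receptors Fcgr2b, Fcgr4, Fcgr1 and Fcgr3 (3.08, 2.09, 1.63 and 1.32) rose, and Mertk, which engulfs dead cells, did not pass (-0.26 ± 0.18).

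Receptors for chemoattractants and purines rose in 16 of 26 cases and fell in 5 (median 1.05), against 12 and 10 with library totals. Adora2a, an adenosine receptor that dampens inflammation, had 177, 247 and 191 CPM in KO T6, against 0.653, 1.07 and 0.688 CPM in KO T0 (8.0 ± 0.31), and Adora2b rose by 5.6 ± 0.20. Fpr1, the receptor for bacterial formyl peptides, had 248, 108 and 293 CPM in KO T6, against 4.39, 3.91 and 4.82 CPM in KO T0 (5.63 ± 0.45). The ATP-gated channel P2rx7, which triggers the NLRP3 inflammasome, had 25.7, 25.9 and 26.1 CPM in KO T6, against 140, 130 and 140 CPM in KO T0 (-2.40 ± 0.13). Cxcr4 had the largest fall of the list (-4.90).

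Adhesion, coagulation and matrix genes rose in 18 of 28 cases and fell in 1 (median 2.02), or in 0 without KO T6 replicate 1, KO T6 replicate 3 or KO T0 replicate 1. Mmp13, a collagenase, had 4473, 3780 and 4599 CPM in KO T6, against 39.4, 31.5 and 35.2 CPM in KO T0 (6.92 ± 0.36). Icam1, which binds leukocyte integrins, had 2026, 1656 and 2367 CPM in KO T6, against 155, 133 and 113 CPM in KO T0 (3.92 ± 0.22). Thbs1, a matrix glycoprotein, overlapped between groups, with 828, 165 and 598 CPM in KO T6, against 165, 106 and 109 CPM in KO T0 (2.06 ± 0.55, adjusted p = 0.0029), KO T6 replicate 2 being the low library.

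Most genes of glucose uptake and glycolysis rose, and few of the TCA cycle did. Of 24 glycolysis and HIF genes 18 rose and 2 fell (median 1.54), against 12 and 3 with library totals (median 0.70). Without the libraries that stood apart the median was 0.96, and falls numbered 0 when KO T6 replicate 2, KO T6 replicate 3 or KO T0 replicate 2 was left out, and 1 when it was KO T0 replicate 1 or 3. The glucose transporter Slc2a1 had 354, 276 and 335 CPM in KO T6, against 12.1, 19.2 and 16.2 CPM in KO T0 (4.35 ± 0.22), and hexokinase 2 (Hk2) had 165, 169 and 174 CPM in KO T6, against 26.9, 26.8 and 23.4 CPM in KO T0 (2.72 ± 0.13). Pfkfb3, which makes the activator of phosphofructokinase, rose by 4.92, and Hif1a by 2.43 ± 0.43. Of 19 TCA cycle genes 1 rose (5.26%, against 26.2% of all genes tested) and 8 fell (42.1%, against 32.4%), and all 19 fell with library totals. Idh1 had 45.3, 42.9 and 44.6 CPM in KO T6, against 243, 182 and 215 CPM in KO T0 (-2.27 ± 0.14), and Idh2, Fh1 and Mdh1 fell by 1.49, 1.32 and 0.85. Of 20 nuclear-encoded respiratory chain genes 5 rose (25%, near the 26.2% of all genes) and 2 fell (10%, against 32.4%) under TMM. With library totals 1 rose and 15 fell.

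None of 11 mitochondrially encoded genes passed (edgeR, median -0.47), but without KO T0 replicate 1 and KO T6 replicate 2 the median was -1.41 and 8 fell, and without KO T0 replicate 1 alone 5 fell. These are the libraries in which the mitochondrial share set them apart, and the part of that share in the result was not tested. Of 4 pentose phosphate genes 3 fell (75%, against 32.4% of all genes tested), 0 of them by more than 2-fold. Without KO T0 replicate 1 and KO T6 replicate 2, 1 fell (median -0.26), and with library totals 4 fell. Of 14 NRF2 targets 5 rose and 5 fell (35.7% each, against 26.2% and 32.4% of all genes tested). Over both lists, rises numbered 5, or 8 without KO T0 replicate 1. Slc7a11, the cystine importer, had 30.9, 23.7 and 34.8 CPM in KO T6, against 3.16, 2.08 and 2.99 CPM in KO T0 (3.44 ± 0.25). Haem oxygenase Hmox1 overlapped between groups, with 882, 948 and 735 CPM in KO T6, against 982, 485 and 602 CPM in KO T0 (0.31 ± 0.21, adjusted p = 0.2), and passed without KO T0 replicate 1 (0.65).

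Of 32 cholesterol and fatty acid genes 13 rose (40.6%, against 26.2% of all genes tested) and 8 fell (25%, against 32.4%). The median of 0.25 turned to -0.59 with library totals, where 6 rose and 17 fell. Ch25h, which makes 25-hydroxycholesterol, an antiviral oxysterol, had 150, 212 and 191 CPM in KO T6, against 0.753, 1.32 and 1.24 CPM in KO T0 (7.40 ± 0.51). Of 13 genes of sterol synthesis and uptake 9 rose and 1 fell (median 1.06). The sterol exporter Abcg1 had 226, 289 and 222 CPM in KO T6, against 550, 287 and 395 CPM in KO T0 (-0.74 ± 0.20), and Abca1 did not pass (-0.05 ± 0.42). Fatty acid genes fell in 5 of 10 cases, Fads1 by 2.67 and Scd2 by 2.36.

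DNA replication genes fell in 20 of 34 cases and rose in 6 (median -0.85), and 27 fell with library totals. The helicase subunit Mcm2 had 3.11, 2.41 and 2.46 CPM in KO T6, against 13.3, 11.1 and 10.8 CPM in KO T0 (-2.14 ± 0.20). Pcna went up (0.59 ± 0.17, turning to -0.25 with library totals). The E2F motif lay in 18.9% of 37 windows of the 29 matched replication genes, against 1.9% of windows of the genes tested. Mitosis genes fell in 11 of 27 cases (40.7%, against 32.4% of all genes tested) and rose in 3 (median -0.74). Falls numbered 17 without KO T6 replicate 1, and with library totals 23 fell and 2 rose. Cdk1 had 6.44, 6.54 and 4.87 CPM in KO T6, against 10.8, 20.6 and 14.6 CPM in KO T0 (-1.37 ± 0.23), and Tpx2 (3.52), Mki67 (1.61 ± 0.21) and Cenpe (0.68) rose. Ccnd2, a cyclin of the G1 phase, had 568, 406 and 589 CPM in KO T6, against 5.17, 7.2 and 6.23 CPM in KO T0 (6.40 ± 0.34), and the CDK inhibitor Cdkn1a (p21) rose by 1.62 ± 0.17 while Cdkn1b (p27) fell by 0.92 ± 0.21.

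Circadian clock genes fell in 10 of 14 cases and rose in 1 (median -0.92), or in 2 without KO T0 replicate 1. With library totals 12 fell and 0 rose. Dbp, an output of the clock, had 1.33, 3.3 and 2.23 CPM in KO T6, against 67.1, 62.9 and 64.3 CPM in KO T0 (-4.85 ± 0.36), Tef and Per3 fell by 3.30 and 2.77, and Per1 had 16.8, 12.8 and 14.5 CPM in KO T6, against 39.8, 37.9 and 35.9 CPM in KO T0 (-1.36 ± 0.14). Nr1d1 fell by 0.90 ± 0.27, a call lost without KO T6 replicate 1 (-0.63) or KO T0 replicate 1 (-0.68). Cry2 rose (0.53). The hours at which cells were collected are not given in the labels read here.

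Of 28 lysosomal genes 8 rose and 8 fell (28.6% each, near the 26.2% and 32.4% of all genes tested; median 0.08), against 2 and 21 with library totals, and 5 fell without KO T0 replicate 1. Of their transcriptional regulators, Tfeb had 15.4, 13.7 and 12.6 CPM in KO T6, against 78.4, 91.4 and 82.7 CPM in KO T0 (-2.60 ± 0.18), Mitf and Tfec rose (1.61 and 1.78), and Tfe3 did not pass (0.31 ± 0.14). Tfe3 rose with DESeq2 (0.43) or without KO T0 replicate 2 (0.41), and fell with library totals (-0.53). In the unfolded protein and integrated stress response list 7 of 29 rose (24.1%) and 10 fell (34.5%), again near the shares of all genes (median 0.21, turning to -0.63 with library totals). Rises numbered 4 without KO T0 replicate 2 and 11 with DESeq2. The chaperone Hspa5 had 1795, 1282 and 1944 CPM in KO T6, against 642, 416 and 531 CPM in KO T0 (1.66 ± 0.19), and the stress factor Ddit3 (CHOP) had 44.2, 100 and 51.4 CPM in KO T6, against 184, 127 and 176 CPM in KO T0 (-1.32 ± 0.29). Atf4 did not pass (-0.02 ± 0.30). KO T6 replicate 2 held 665 CPM of Atf4, against 234 and 306 CPM in its partners, and without it Atf4 fell by 0.59.

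Ribosome biogenesis factors fell in 14 of 25 cases and rose in 1 (median -0.42). Of 67 cytosolic ribosomal protein genes 9 fell (13.4%, under the 32.4% of all genes tested) and none rose (edgeR, median -0.36). That count depended on the libraries and the scaling: 3 to 5 fell without any 1 of KO T6 replicates 1 and 3 and KO T0 replicates 2 and 3, 5 with DESeq2, 25 without KO T6 replicate 2, 36 without the libraries that stood apart and 55 with library totals. Zinc finger genes with 3-digit Zfp symbols fell in 121 of 261 cases (46.4%) and rose in 40 (15.3%). Solute carriers fell in 81 of 196 (41.3%) and rose in 56 (28.6%), and TRIM genes fell in 17 of 46 (37%) and rose in 15 (32.6%). Over all genes tested 32.4% fell and 26.2% rose.

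The response of KO cells ran close to that of WT cells. Of the 4142 genes that rose in KO, 3772 also rose in WT (91.1% of the KO list and 87.7% of the 4302 in WT), and 4451 fell in both (87.1% of the KO list and 88.5% of the 5030 in WT). The number that passed in opposite directions was 0. Across the 15782 genes the log2 fold changes of the genotypes, which share no library, had a Pearson's r of 0.924 and a Spearman's rho of 0.931; genes are not independent replicates. For Nos2, Il6 and Ptgs2 the log2 fold change was 11.79, 10.14 and 10.16 in KO and 10.69, 9.13 and 9.09 in WT. The interferon-induced list had a median of 2.35 in KO and 3.47 in WT, the chemokines of 5.14 in KO and 5.28 in WT, and the inflammatory cytokines of 5.0 in KO and 4.49 in WT; these medians were not tested against each other.

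**Figure D3:**
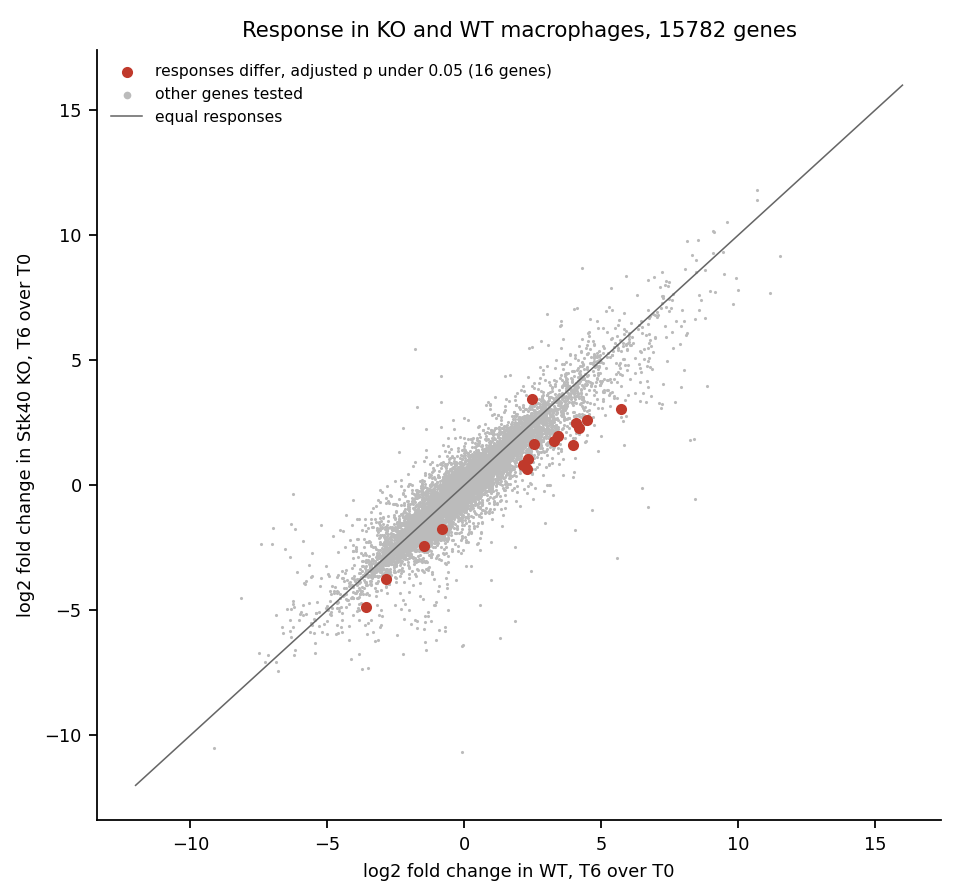
Log2 fold change of T6 over T0 in Stk40 KO (vertical axis) against WT (horizontal axis) for 15782 genes; the line marks equal responses and red points are the 16 genes whose responses differ at an adjusted p under 0.05. Points follow the line, and 15 of the 16 red points lie below it.

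A test of the difference itself called 16 genes (0.101%), 15 with a smaller rise or larger fall in KO (0.095%) and 1, the mitotic kinase gene Nek6, with a larger rise (0.00634%). At an unadjusted p under 0.05 there were 803. Slfn1, a Schlafen family gene, had 468, 377 and 570 CPM in KO T6 and 189, 115 and 166 CPM in KO T0, against 372, 253 and 316 CPM in WT T6 and 24, 19 and 17.5 CPM in WT T0 (difference of log2 responses -2.37 ± 0.28, adjusted p = 0.0009). Ms4a4c, of the membrane-spanning 4A family, had 1336, 1160 and 1503 CPM in KO T6 and 246, 182 and 221 CPM in KO T0, against 1089, 860 and 841 CPM in WT T6 and 39.3, 51.9 and 33.9 CPM in WT T0 (-1.86 ± 0.28, adjusted p = 0.01). In both genes the genotypes stood further apart without LPS than with it.

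The same held for Ifi44, with 923, 802 and 1105 CPM in KO T6 and 263, 136 and 181 CPM in KO T0, against 568, 633 and 662 CPM in WT T6 and 41.8, 31.9 and 28.4 CPM in WT T0 (-1.91 ± 0.29). Ifi213, of the DNA-sensing PYHIN family, had 315, 229 and 323 CPM in KO T6 and 72.5, 88.5 and 91.9 CPM in KO T0, against 255, 213 and 239 CPM in WT T6 and 23.1, 28.1 and 21 CPM in WT T0 (-1.51 ± 0.23). Kcnk13, the potassium channel THIK-1, differed at T6 instead: 6.79, 6.36 and 6.91 CPM in KO T6 and 36.9, 33.1 and 38.4 CPM in KO T0, against 15.7, 15.7 and 15.3 CPM in WT T6 and 44.1, 41.2 and 42.8 CPM in WT T0 (-0.98 ± 0.17, adjusted p = 0.032). Lair1, an inhibitory collagen receptor, had 23.9, 24.4 and 26.7 CPM in KO T6 and 80.9, 77.6 and 90.8 CPM in KO T0, against 26.3, 23.8 and 25.3 CPM in WT T6 and 43.4, 49.1 and 41.5 CPM in WT T0 (-0.90 ± 0.15). Nek6 had 111, 101 and 104 CPM in KO T6 and 10.3, 9.77 and 8.81 CPM in KO T0, against 100, 85.2 and 74 CPM in WT T6 and 13.9, 15.6 and 16.6 CPM in WT T0 (0.96 ± 0.17).

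This list is not firm. The count was 1 without WT T0 replicate 3, 3 without either KO T6 replicate 1 or KO T0 replicate 3, 5 without KO T6 replicate 3, 7 without KO T6 replicate 2, 9 without KO T0 replicate 1, 10 without WT T0 replicate 1 and 6 without WT T6 replicate 2. A fit to the 12 libraries alone called 0 genes (597 at an unadjusted p under 0.05), and DESeq2 called 80. WT T6 replicate 1 and WT T0 replicate 2 carried Y-linked transcripts (116 and 103 CPM over 4 genes), while the KO libraries held at most 0.0455 CPM. Without WT T6 replicate 1 the count was 6, and without WT T0 replicate 2 it was 18. The part of this difference in the result was not tested.

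**Figure D4:**
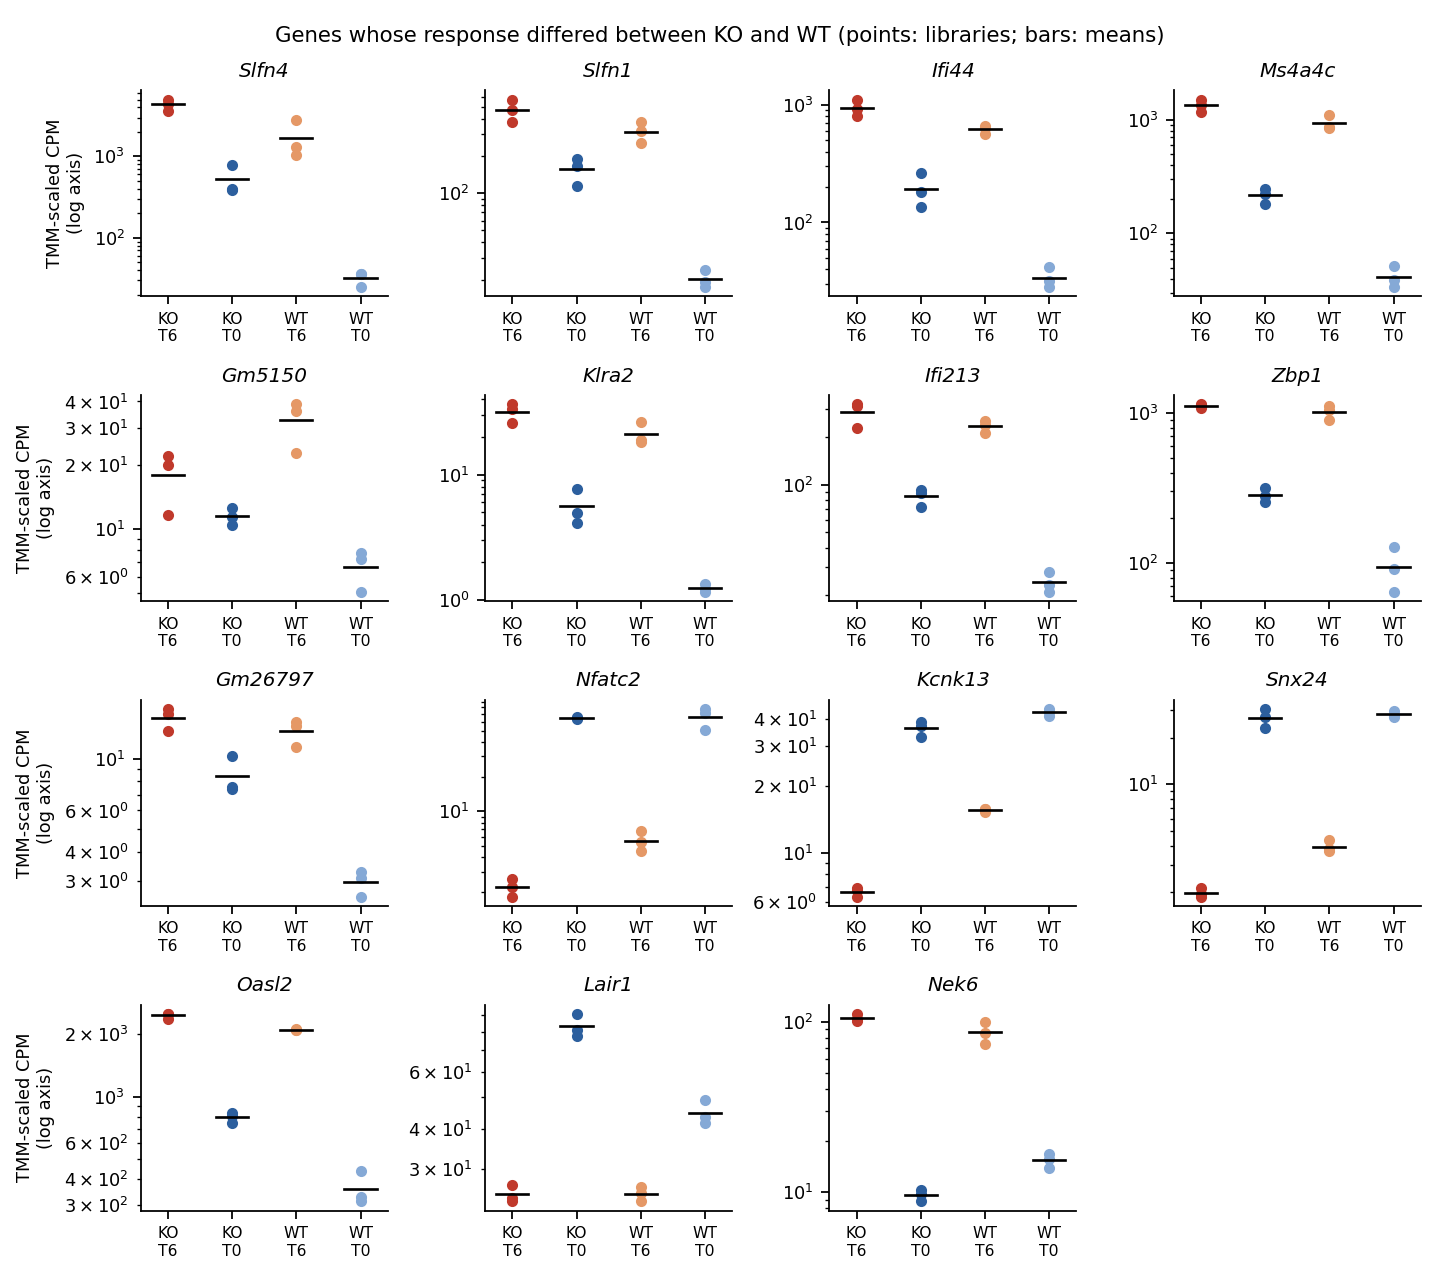
TMM-scaled CPM (log axis) of 15 of the 16 genes whose response differed, in KO T6, KO T0, WT T6 and WT T0; points are libraries and bars are means. For Slfn1, KO T0 lies at 115 to 189 CPM and WT T0 at 17.5 to 24 CPM, while KO T6 (377 to 570 CPM) and WT T6 (253 to 372 CPM) lie close together.

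The levels of the same genes in the later KO libraries place T6 within the time course, as a description with no test. Most of the largest rises were lower at the later labels: the mean of Nos2 was 716 CPM at T16 and 503 CPM at T32, that of Il6 5.39 and 1.53 CPM, that of Ptgs2 45.3 and 23.2 CPM, and that of Edn1 4.02 and 1.4 CPM. Saa3 did not follow them, with means of 26979 CPM at T16 and 24209 CPM at T32, and neither did Fth1 (32266 and 29030 CPM) or Ccl5 (10893 and 9454 CPM). Hmox1, which did not pass at T6, had means of 4619 CPM at T16 and 2366 CPM at T32. Among the genes that fell, Tmem86a had 180 and 183 CPM at T16 and T32 and Slc43a2 524 and 489 CPM, near their levels at T0, while Sesn1 (36.6 and 35.1 CPM) and Engase (5.66 and 5.98 CPM) stayed below theirs.

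**Figure D5:**
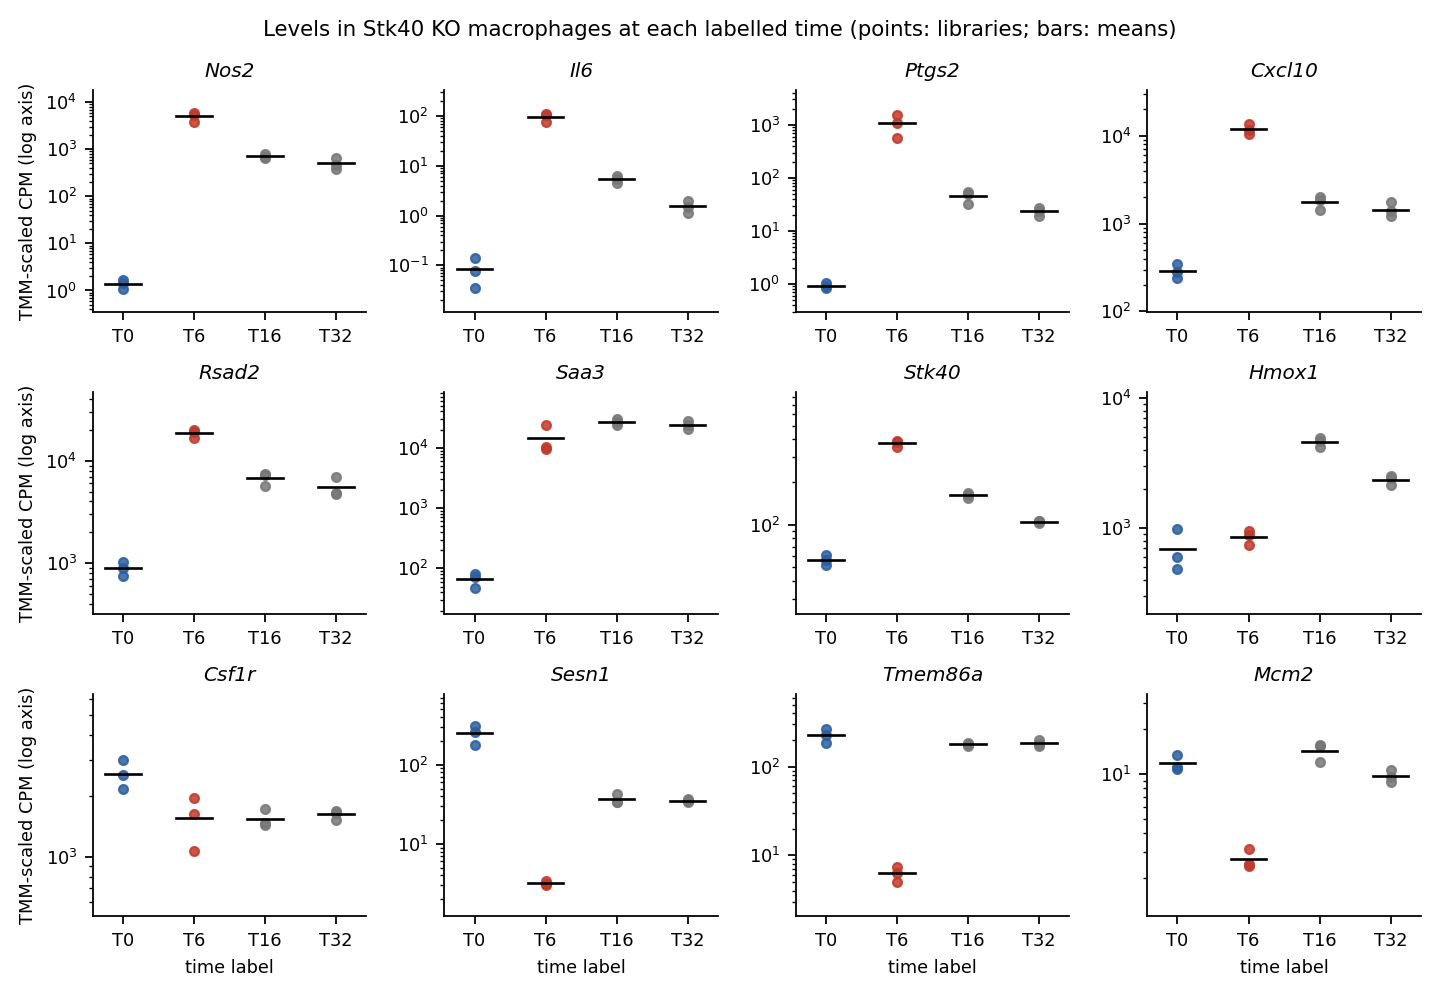
TMM-scaled CPM (log axis) of 12 genes in KO macrophages at the labels T0, T6, T16 and T32; points are the 3 libraries of each group and bars are means. Il6 peaks at T6 (76.1 to 110 CPM), Saa3 is at 20617 to 30205 CPM at T16 and T32, and Tmem86a is low at T6 alone (5 to 7.48 CPM).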

How the data were processed

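Per the labels' protocols, polyadenylated RNA was made into libraries with a kit that does not mark strand and sequenced as single reads of 50 bp. GSNAP and the GRCm38 build are named, without versions, per the submitters' processing notes. Per the file headers, the authors deposited raw counts of reads uniquely aligned to each gene model, for 52636 genes, and nRPKM, an RPKM adjusted by a size factor per library; they also deposited gene sizes.

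Counts of all 23 libraries, with 1 mean per group, were fitted with edgeR 4.0.16 (R 4.3.3; filterByExpr, TMM, robust quasi-likelihood test), and p-values were adjusted by Benjamini-Hochberg over the 15782 genes kept. A gene passed at an adjusted p under 0.05, and changes over 2-fold were tested with glmTreat. The difference in response was (KO T6 - KO T0) - (WT T6 - WT T0), in the same fit. The SE is the log2 fold change divided by the square root of the F statistic. The fits were tried on simulated data in which few genes changed, in both directions. Such data cannot speak for the scaling where most genes change, as here. DESeq2 1.42.0, other scalings, no filter, the compared groups alone, left-out libraries and a replicate block were alternatives. A list median covers members tested.

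Named genes were, in each direction, the 12 of largest log2 fold change (mean of at least 5 CPM), the 8 largest gains and losses in CPM, Stk40, lead genes of each list, and up to 6 differing responses in each direction. The 12 also had to pass, to have a symbol and to show no overlap in CPM between KO T6 and KO T0. Other list members were named after their values were seen, and some genes are not reported here. The comparison and lists were chosen with earlier results of these data known. Gene positions are from GENCODE M21 (GRCm38). Intervals of ratios of counts are 95% and cover counting error only; PCR copies are not independent molecules.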

Additional observations from a re-analysis of the deposited data

Results flagged for a closer look

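The responses of 16 genes, T6 over T0, differed between KO and WT macrophages by a test of the difference itself (edgeR, adjusted p under 0.05). The values of 15 of them are given, as the KO response minus the WT response on the log2 scale. Those of interferon-related genes were -2.37 for Slfn1, -2.67 for Slfn4, -1.51 for Ifi213, -1.91 for Ifi44, -1.46 for Zbp1 and -0.91 for Oasl2. Those of membrane receptors and channels were -1.86 for Ms4a4c, -0.90 for Lair1, -0.98 for Kcnk13 and -1.58 for Klra2. The others were -0.91 for Snx24, a sorting nexin, -1.31 for Nfatc2, a transcription factor, -1.31 for Gm26797, -1.64 for Gm5150 and 0.96 for Nek6. Nek6 was the exception in sign. The number of genes called was 1 without WT T0 replicate 3 and 0 in a fit to the 12 compared libraries alone (597 at an unadjusted p under 0.05).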

How the results depend on the processing

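The count of 9253 changed genes ranged from 7368 with the 6 libraries alone to 11499 with library totals. With library totals, which shift the median by -0.832, 2007 genes rose and 9492 fell, and of 6301 changed over 2-fold 1020 rose and 5281 fell. DESeq2's size factors shift it by 0.111. DESeq2's Wald test gave 1240 falls over 2-fold. Signs turned with library totals for Bcl2l11 (-0.79), Ctsb (-0.68), Ctsl (-0.71), H2-Aa (-0.79), Hmox1 (-0.51), Lamp1 (-0.56), Mrc1 (-0.63), P2rx4 (-0.79), Pcna (-0.25), Rfwd2 (-0.23), Tfe3 (-0.53) and Xbp1 (-0.46), and for the medians of COP1 genes (-0.72), macrophage identity (-0.65), cholesterol genes (-0.59), G1 cyclins (-0.51), the stress response (-0.63) and the markers of dendritic cells (-0.20), mast cells (-0.51), stroma (-0.25) and macrophages (-0.58). A sign counts as turned only where a value passes in either fit, or, for a median, where both exceed 0.1 in size. With libraries left out, the erythroid median ranged from -2.68 to 0.16 (positive without KO T0 replicate 2) and that of mast cells from -0.32 (without KO T6 replicate 1) to 0.73. The scaling itself makes the shift; other causes were not tested. The 16 differing responses became 80 with DESeq2, 7 with its size factors, 37 with library totals, 0 with the 12 libraries alone and 2 without KO T6 replicate 2 and KO T0 replicate 1, an alternative chosen after seeing the data. Leaving out 1 library gave 1 to 21. The labels carry no replicate numbers. With the authors' sheet's numbers as a replicate block, also added after seeing the data, 4103 genes rose and 4370 fell, 8473 in all. Deviations of same-numbered libraries correlated by 0.246, 0.31 and -0.074, and those of different-numbered libraries by -0.432 to 0.402. With 3 libraries a group, these values cannot decide whether the numbers pair the libraries.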

Other observations

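Transcript classes differed in how their members divided between KO T6 and KO T0. Of 1258 processed pseudogenes tested, 343 rose (27.3%, near the 26.2% of all genes tested) and 86 fell (6.84%, against 32.4%). The other 829 did not pass, and the median log2 fold change was 0.32. Among 414 lincRNAs 71 rose (17.1%) and 158 fell (38.2%), with a median of -0.69. Among 331 antisense RNAs 62 rose (18.7%) and 119 fell (36%), with a median of -0.73. With library totals 124 processed pseudogenes rose and 411 fell. Reads of pseudogenes may belong to their parent genes, and reads of antisense RNAs to the genes opposite, since the libraries do not mark strand. These classes were looked at after the data were seen and were not tested against each other.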
